A study of Mus musculus with 20 samples.

Results

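The microRNAs (miRNAs) described here are those of 4 hairpins that skip Drosha, the nuclear enzyme that cuts most miRNA precursors: miR-320, miR-484 and the mirtrons miR-877 and miR-1224. They were taken as every entry of the normalised table with one of these stems, which gave 6 of 281 miRNAs: miR-320-5p, miR-320-3p, miR-484, miR-877-5p, miR-877-3p and miR-1224-5p. The group was chosen by a measured value, the higher level of miR-320-5p (mmu-mir-320-5p in the table) after cannabidiol (CBD), so that contrast is given for all 6 as a description, with no test.

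In the canonical route, Drosha releases a hairpin from a long transcript, Exportin-5 carries it to the cytoplasm and Dicer cuts it into a 5p and a 3p arm. In mouse cells the miR-320 hairpin is itself a short transcript of RNA polymerase II with a cap at its 5′ end, and it leaves the nucleus by Exportin-1. The cap hinders use of the 5p arm, so the 3p arm is usually taken to be the functional one. A mirtron is a short intron that the spliceosome frees, after which Dicer cuts it like any other precursor, and its ends are therefore splice sites.

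The study sequenced small RNA from the right ventral hippocampus of 20 naïve male wildtype mice of strain C57BL/6JOlaHsd, with 1 library per mouse. The CBD group of 10 received 200 mg/kg of CBD per day, split over 2 intraperitoneal doses a day for 5 days, and the vehicle group of 10 was injected with vehicle on the same schedule. CBD is a non-intoxicating compound of cannabis. No source used here gives the ages or the make-up of the vehicle. Libraries are numbered within each group in accession order, and the numbers pair no mice.

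The libraries came from 4 numbered runs, which held 3, 3, 2 and 2 CBD libraries and 2, 3, 2 and 3 vehicle libraries. What a run was is not stated beyond its number. Total reads ranged from 326559 to 1245429 in CBD libraries and from 242178 to 1169139 in vehicle libraries. CBD 6, vehicle 5 and vehicle 3, all of run 2, listed the fewest miRNAs (608, 627 and 672 of a range up to 869). Values of the members that moved most without these 3 libraries are given both ways. All 4 neuronal markers (miR-124-3p, miR-9-5p, miR-128-3p and miR-137-3p) were present. They summed to 97970 to 248500 counts per 1000000 reads (CPM) in CBD libraries and 115700 to 166900 CPM in vehicle libraries. Most of that sum was miR-9-5p, with a mean log2 CPM of 16.92 with CBD and 16.78 with vehicle. The means were 10.29 and 10.83 for miR-124-3p, 14.55 and 14.57 for miR-128-3p, and 10.61 and 10.76 for miR-137-3p. The 6 noncanonical miRNAs together took a median of 0.279% of the reads in CBD libraries and 0.251% in vehicle libraries.

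The mature sequences of 4 of the 6 are shown because they carry what separates the mirtrons from miR-484, their place at an intron's ends. They are from RefSeq (GRCm38.p6), 5′ to 3′, with the seed, bases 2 to 8, in capitals.
miR-484: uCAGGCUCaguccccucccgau
miR-877-5p: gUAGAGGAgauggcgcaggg
miR-877-3p: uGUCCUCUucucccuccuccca
miR-1224-5p: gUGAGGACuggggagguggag
The 4 seeds differ from each other, and no other of the 247 miRNAs of the table with a sequence entry shares one of them.

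The mirtron label could be checked against gene annotation. In GRCm38, Mir877 (chr17:35960730-35960814, minus strand) matches an intron of Abcf1 from its first to its last base. Abcf1 encodes an ATP-binding cassette protein that acts in translation initiation. Mir1224 (chr16:20604452-20604536, plus strand) likewise fills an intron of Vwa5b2, which encodes a protein with a von Willebrand factor A domain. Both hairpins are 85 bases long, and both begin with GU and end with AG, the letters of an intron's ends, in capitals here.
Mir877: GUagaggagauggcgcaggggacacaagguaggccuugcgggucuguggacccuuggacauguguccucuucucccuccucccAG
Mir1224: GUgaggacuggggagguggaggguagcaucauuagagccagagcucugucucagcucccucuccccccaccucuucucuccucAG
The 5p arms of both begin at the first base of the intron, and miR-877-3p stops 1 base short of its end. The 5p arms hold few pyrimidines, 20% of the bases of miR-877-5p and 19.05% of those of miR-1224-5p, and miR-877-3p holds 90.9%, as the pyrimidine-rich stretch before an intron's end does. Of 171 measured hairpins with an annotation entry, 4 fill an intron exactly: Mir877, Mir1224, Mir1981 and Mir7080.

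The other hairpins lie differently. Mir320 (chr14:70443510-70443591, plus strand) overlaps no annotated gene and lies 63 bases from Polr3d, on the opposite strand, which encodes a subunit of RNA polymerase III. Mir484 (chr16:14159626-14159692, plus strand) lies within Marf1, which is on the opposite strand, and overlaps one of its exons. Nde1, a gene of neuronal progenitor division, begins 3583 bases further along on the strand of Mir484.

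miR-320-5p was the member with the widest gap between treatments. Its level, here always log2 of CPM over the authors' effective library size, ran from 7.37 in CBD 1 through a median of 8.76 to 10.18 in CBD 6 among CBD libraries. Among vehicle libraries it ran from 6.08 in vehicle 6 through a median of 7.55 to 9.05 in vehicle 7. The groups overlapped: 4 CBD libraries lay above every vehicle library, 4 vehicle libraries lay below every CBD library, and 9 of 10 CBD libraries exceeded the vehicle mean. These levels stand for 117 to 578 reads in CBD libraries and 47 to 279 in vehicle libraries. In bulk tissue, fewer cells with a miRNA and less of it per cell cannot be told apart.

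The mean of miR-320-5p was 8.76 ± 0.86 in CBD mice, against 7.59 ± 0.93 in vehicle mice (mean ± SD of 10 each), a difference of 1.17 log2 units (SE 0.37). This was the largest positive difference among the 281 miRNAs, and it is the value that chose the group. With run as a further term it was 1.15. Within runs 1 to 4 it was 0.95, 1.31, 0.57 and 1.65. These are parts of the difference that chose the group and give it no further support. Other miRNAs kept their sign in all 4 runs too, such as miR-126a-5p, which was lower with CBD in each. The difference of miR-320-5p was smallest, 1.00, without vehicle 6 and largest, 1.33, without vehicle 7. The authors' deposited table lists a log2 fold change of 1.05 for it. Mean levels in that table differ from those used here by up to 0.459 log2 units over all miRNAs. The ependyma and choroid plexus markers (4 of 6 measured, none of these at 0) summed to 5646 to 23680 CPM in CBD libraries (median 18540) and 4287 to 34540 CPM in vehicle libraries (median 8246). Most of that sum was miR-204-5p, with a mean level of 13.57 with CBD and 13.12 with vehicle, a difference of 0.45 (SE 0.38). The other markers averaged between 6.77 and 8.94 and differed by 0.16 (miR-34b-5p), 0.06 (miR-34b-3p) and -0.26 (miR-34c-5p). The part of these markers in the difference of miR-320-5p was not tested.

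No miRNA of the table passed an adjusted p of 0.05 between CBD and vehicle in limma's moderated test (0 of 281, 0%), and 22 (7.83%) had an unadjusted p under 0.05. Of these, 7 (2.49%) were higher with CBD and 15 (5.34%) lower, and after median centring of the libraries 13 were higher and 4 lower. An exact Wilcoxon test gave 0 and 21, limma with weights on the recovered reads gave 0 and 24, and limma with a run term gave 0 and 42.

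miR-320-3p, the arm usually taken as functional, was spread more widely within each treatment. It ran from 7.62 in CBD 10 through a median of 9.82 to 11.82 in CBD 8 among CBD libraries, and from 7.41 in vehicle 8 through a median of 9.32 to 11.23 in vehicle 5 among vehicle libraries. Its means were 9.54 ± 1.29 in CBD mice, against 9.05 ± 1.32 in vehicle mice (mean ± SD of 10 each), and the difference of 0.49 (SE 0.52) was smaller than its own error. A single CBD library exceeded all vehicle libraries and a single vehicle library lay under all CBD libraries. The difference was 0.84, -0.04, 0.57 and 0.45 within runs 1 to 4, 0.24 without CBD 8 and 0.73 without vehicle 5.

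miR-484, which like miR-1224 has a single arm in the table, had the smallest SD over libraries of the 6 (0.44). Among CBD libraries it lay between 8.66 and 9.59 with a median of 9.44, and among vehicle libraries between 8.73 and 10.65 with a median of 9.51. Its means were 9.34 ± 0.31 in CBD mice, against 9.46 ± 0.56 in vehicle mice (mean ± SD of 10 each), a difference of -0.12 (SE 0.21). Vehicle 4 held the highest value, and without it the difference was 0.01. In run 1 the 5 libraries of both treatments fell between 9.45 and 9.59.

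**Figure D1:**
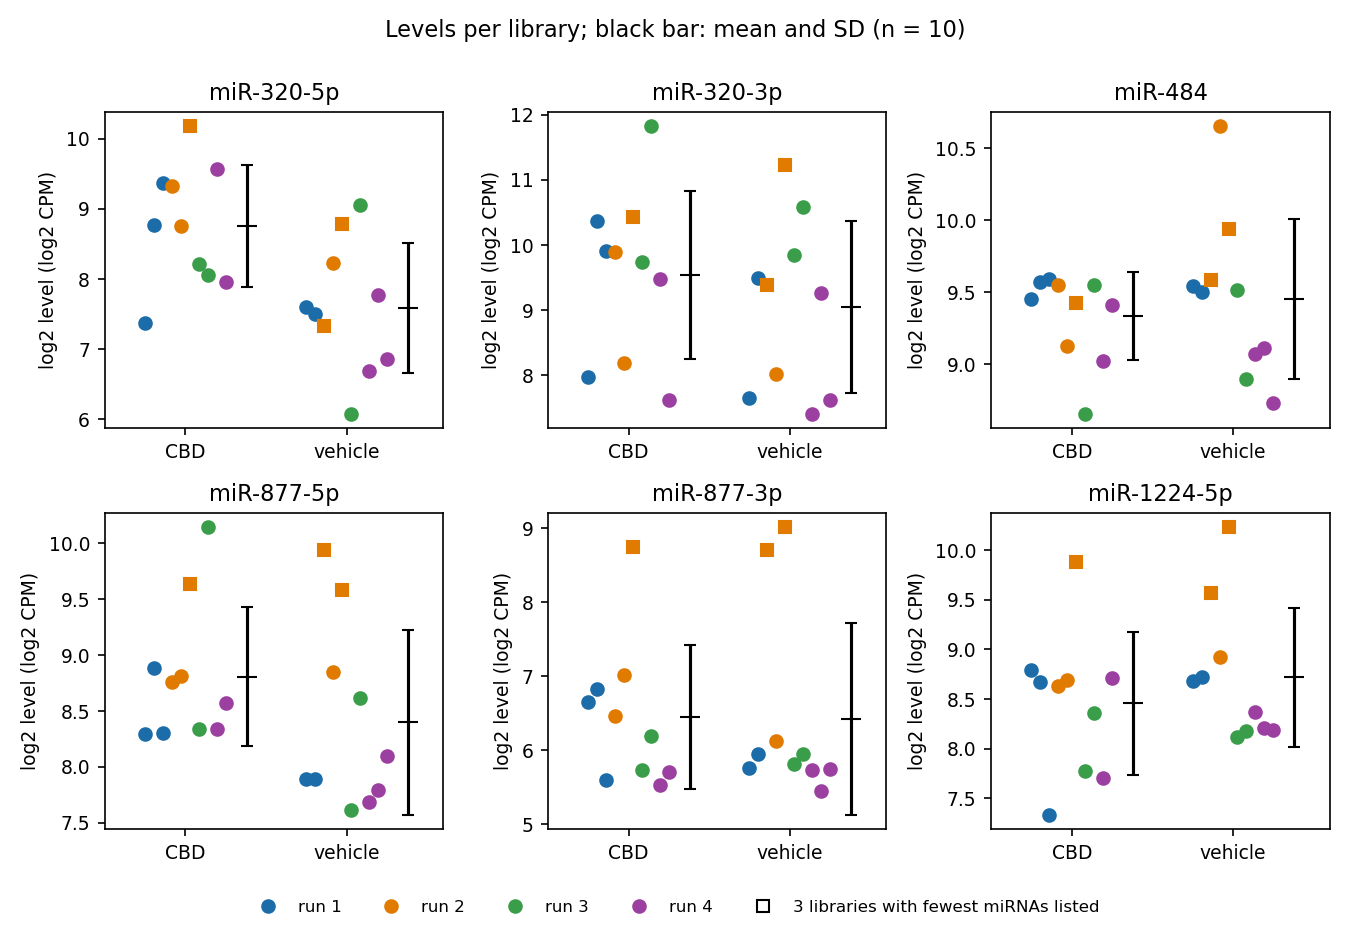
Log2 level (log2 CPM, vertical axis) of each noncanonical miRNA in the 10 CBD libraries and the 10 vehicle libraries, coloured by run, with the mean and SD as a black bar and squares for the 3 libraries that listed the fewest miRNAs. miR-320-5p shows the widest gap between the treatment means (8.76 with CBD, 7.59 with vehicle), and the squares are the highest points of their treatment for miR-877-3p and miR-1224-5p.

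Among the mirtrons, miR-877-5p had the widest gap between treatments. It averaged 8.81 ± 0.62 in CBD mice, against 8.40 ± 0.82 in vehicle mice (mean ± SD of 10 each), a difference of 0.41 (SE 0.31), and 6 vehicle libraries lay under every CBD library. It ran from 8.30 to 10.14 in CBD libraries around a median of 8.66, and from 7.61 to 9.94 in vehicle libraries around a median of 7.996. Its difference was negative in run 2 (-0.39) and positive in runs 1, 3 and 4 (0.60, 1.12 and 0.60). Without CBD 8, its highest library, the difference was 0.26.

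miR-877-3p, the other arm of that intron, averaged 6.45 ± 0.97 in CBD mice, against 6.43 ± 1.30 in vehicle mice (mean ± SD of 10 each), a difference of 0.02 (SE 0.46). It was the scarcest of the 6, with a median of 56 reads in CBD libraries and 60 in vehicle libraries, and ranked 252 of 281 by level. Its highest values were 8.75 in CBD 6, and 9.01 and 8.70 in vehicle 5 and vehicle 3. These are the 3 libraries that listed the fewest miRNAs, and the next highest value was 7.02, in CBD 5. Without them the difference between treatments was 0.38, and with a run term it was -0.03.

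miR-1224-5p averaged 8.46 ± 0.72 in CBD mice, against 8.72 ± 0.70 in vehicle mice (mean ± SD of 10 each), a difference of -0.26 (SE 0.30). It ran from 7.33 to 9.89 in CBD libraries around a median of 8.65, and from 8.11 to 10.23 in vehicle libraries around a median of 8.53. CBD was lower in each run, by between -0.50 and -0.05, and 3 CBD libraries lay under every vehicle library.

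The members did not share a direction between treatments: 4 were higher with CBD and 2 lower, with a median difference of 0.22, beside 108 higher and 173 lower and a median of -0.08 over all 281. In a test of whether the treatment difference varied by run, 0 of 281 miRNAs passed the adjusted threshold in limma's F test (0%) and 14 had an unadjusted p under 0.05, none of them a member. By mean level over the 20 libraries the order was miR-484 (9.396), miR-320-3p (9.30), miR-877-5p (8.60), miR-1224-5p (8.59), miR-320-5p (8.17) and miR-877-3p (6.44). These are reads per mature miRNA with no correction for length. Neighbours in that order differed by less than their SD over libraries (0.44 to 1.30), except miR-320-5p and miR-877-3p, which differed by more than the SD of either (1.06 for miR-320-5p and 1.11 for miR-877-3p).

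Runs separated the mirtrons. In limma's F test with treatment in the fit and Benjamini-Hochberg adjustment over 281 miRNAs, miR-877-3p (adjusted p = 0.00551), miR-1224-5p (adjusted p = 0.0145) and miR-877-5p (adjusted p = 0.0264) passed, beside 135 of all 281 miRNAs (48%). The share of 3 in 6 is close to that background. All 3 were highest in run 2, where miR-877-3p averaged 7.68, against 6.16, 5.93 and 5.64 in runs 1, 3 and 4. miR-1224-5p averaged 9.32 in run 2, against 8.44, 8.11 and 8.24 in runs 1, 3 and 4. miR-877-5p averaged 9.26 in run 2, against 8.26, 8.68 and 8.10 there.

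The run differences of the mirtrons rested on the 3 libraries of run 2 that listed the fewest miRNAs. Without them, the adjusted p was 0.0983 for miR-877-3p, 0.268 for miR-1224-5p and 0.311 for miR-877-5p (limma's F test), so that 0 of the 6 members passed, beside 60 of all miRNAs. Leaving out 1 of them was enough for miR-877-5p, with an adjusted p of 0.0525 without CBD 6, 0.0714 without vehicle 3 and 0.0681 without vehicle 5. For miR-877-3p and miR-1224-5p the call held in each of the 20 fits that left out 1 library. Of the 3, CBD 6 had 326559 total reads, vehicle 5 had 242178 and vehicle 3 had 342633. Vehicle 1, of run 1, had a total of 325710 reads and held miR-877-3p at 5.76, from 19 reads. The part of depth in the mirtron levels was not tested.

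The miR-320 arms and miR-484 did not pass the run test with all libraries. The adjusted p from limma's F test was 0.0513 for miR-320-3p, 0.0738 for miR-484 and 0.238 for miR-320-5p. miR-320-3p was near the threshold: leaving out any one of CBD 2, 3, 5, 7 or 9 or of vehicle 4, 5 or 9 gave an adjusted p between 0.0324 and 0.0455. The same held for miR-484 without CBD 5 (0.0450) or CBD 8 (0.0356), and for miR-320-5p without vehicle 7 (0.0406). miR-320-3p averaged 10.50 in run 3, against 9.08, 9.52 and 8.28 in runs 1, 2 and 4. The same ependyma and choroid plexus markers were also high in run 3, at a summed 20610 to 34540 CPM. In the other runs they summed to 4287 to 21990 CPM. Other cell markers had their highest median in run 3 too. Those of neurons had 164500 CPM, against 131500, 135000 and 153100 CPM in runs 1, 2 and 4. Blood vessel markers had 4940 CPM (4381, 3783 and 3826), and oligodendrocyte markers 793 CPM (717, 457 and 625). The single measured markers of immune cells and of red blood cells had their highest median in run 2. The part of cell markers in the level of miR-320-3p was not tested.

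Within libraries, the 3p arm of miR-320 had the higher level by reads on average. How evenly sequencing captured each arm was not tested, so this order is one of reads. The 5p minus 3p difference averaged -1.12 ± 1.24 log2 units (SD, n = 20), and miR-320-3p was higher in 16 of 20 libraries (two-sided sign-flip permutation test, p = 0.00039, adjusted over 2 hairpins 0.00039). The 4 libraries with more 5p than 3p were CBD 5 (0.58), CBD 10 (0.33), CBD 9 (0.09) and vehicle 4 (0.20). The difference averaged -0.79 ± 1.26 in CBD mice, against -1.46 ± 1.19 in vehicle mice (mean ± SD of 10 each). The treatments differed in it by 0.68 (SE 0.48), and by 0.73 with a run term, given without a test because miR-320-5p chose the group.

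The mirtron miR-877 showed the opposite arm order with less spread. miR-877-5p exceeded miR-877-3p in 20 of 20 libraries, by 2.16 ± 0.76 (SD, n = 20; two-sided sign-flip permutation test, p = 1e-05, the smallest value these permutations can give, adjusted 2e-05). The difference was 2.36 ± 0.83 in CBD mice, against 1.97 ± 0.66 in vehicle mice (mean ± SD of 10 each). It ranged from 0.57 in vehicle 5 to 3.94 in CBD 8.

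**Figure D2:**
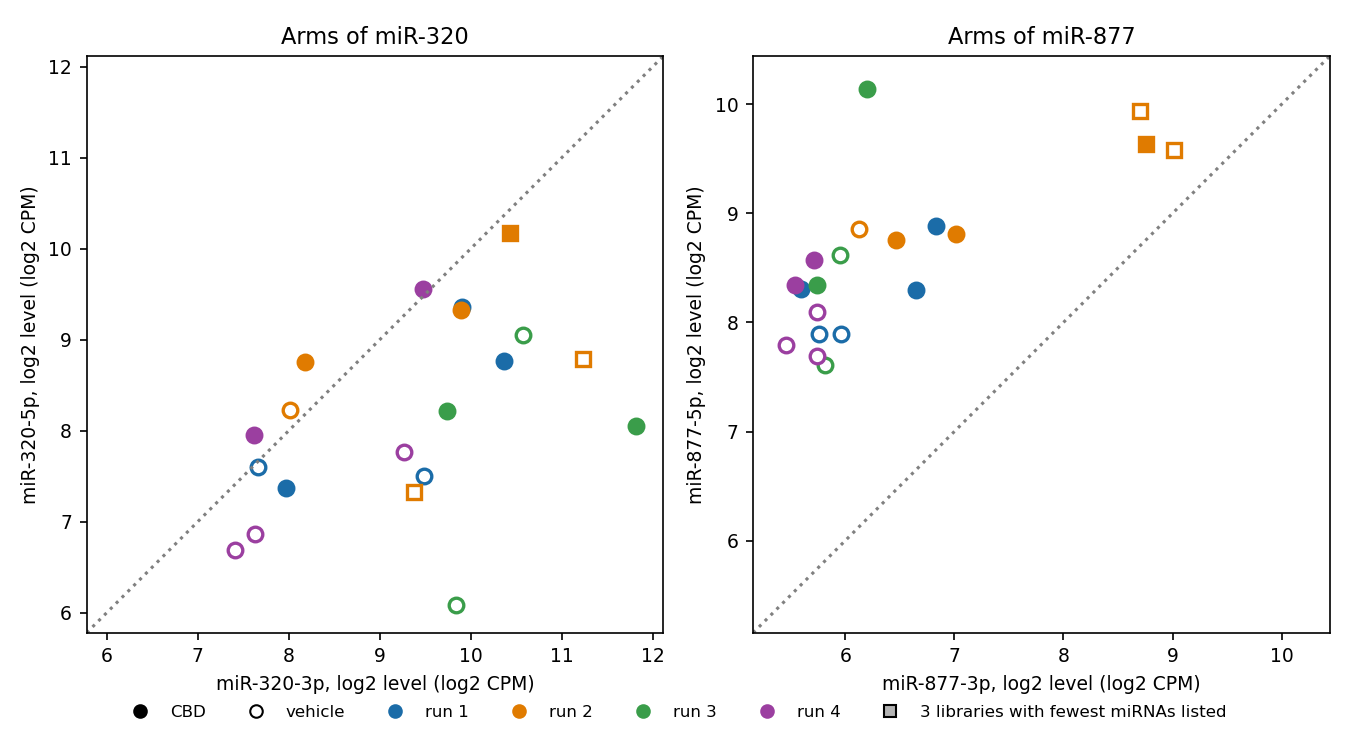
The 5p arm (vertical axis) against the 3p arm (horizontal axis) of miR-320 and of miR-877, as log2 CPM in each of the 20 libraries, with filled symbols for CBD, open symbols for vehicle, colours for runs and a dotted line where the arms are equal. For miR-320, 16 of 20 libraries lie below the line, and for miR-877 all 20 lie above it, with the 3 libraries of fewest miRNAs apart at the right.

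The arms of miR-320 followed each other loosely. With treatment means removed, Pearson's r between them was 0.431 (n = 20 libraries, permutation p = 0.0584, adjusted over 2 hairpins 0.0584) and Spearman's rho was 0.475 (p = 0.0357, adjusted 0.0357, permutation test). Without the 2 libraries farthest from the median of the 5p arm r was 0.485 (permutation p = 0.0425). It was 0.548 with run means also removed (permutation p = 0.0121) and 0.734 without run 3 (permutation p = 0.00136). Within CBD libraries r was 0.365 and within vehicle libraries 0.491. Without the 3 libraries that listed the fewest miRNAs it was 0.303 (permutation p = 0.238). The 4 libraries of run 3 each held more 3p than 5p, as did the 5 libraries of run 1, with mean differences of -2.64 and -0.96.

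The arms of miR-877 gave r = 0.766 (n = 20 libraries, permutation p = 0.00063, adjusted 0.00126) and rho = 0.651 (permutation p = 0.00251, adjusted 0.00502). Without the 2 libraries farthest from the median of the 5p arm r was 0.845, and with run means removed it was 0.619. It was 0.911 without run 3, 0.527 within CBD libraries and 0.902 within vehicle libraries. Without the 3 libraries that listed the fewest miRNAs r was 0.342 (n = 17, permutation p = 0.181, adjusted 0.238). Spearman's rho was then 0.463 (permutation p = 0.0625, adjusted 0.125). The relation was thus weaker without those 3, and the remaining libraries do not settle whether it rested on them alone. Over the 62 hairpins with both arms in the table, the median arm correlation was 0.140 (range -0.636 to 0.903), with miR-877 5th and miR-320 16th from the top.

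The balance of the miR-320 arms differed between runs. The 5p minus 3p difference averaged -0.96, -0.76, -2.64 and -0.51 in runs 1 to 4, and the limma F test over the 62 hairpins gave an adjusted p of 0.0121, beside 25 hairpins called (40.3%). In run 3 the values were -1.52 and -3.77 in the CBD libraries and -1.53 and -3.76 in the vehicle libraries. The call rested on that run: the adjusted p was 0.478 without it, 0.0708 without CBD 8 and 0.0622 without vehicle 6. The balance of miR-320 was variable, with an SD within treatments of 1.23, the second highest of 62 hairpins, against a median of 0.720.

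Run and treatment could be set side by side for the miR-320 arms. CBD and vehicle means of 5p minus 3p were -0.91 and -1.02 in run 1, -0.08 and -1.43 in run 2, -2.64 and -2.65 in run 3, and 0.21 and -0.99 in run 4. The treatment means lay farther apart in runs 2 and 4 than in runs 1 and 3. Each of these means rests on 2 or 3 libraries, with SDs from 0.17 (CBD, run 4) to 1.59 (CBD, run 3). Whether the gap between treatments varied by run was not tested for this difference, which holds miR-320-5p, the miRNA that chose the group. In run 2, both vehicle libraries with few miRNAs listed, vehicle 3 (-2.06) and vehicle 5 (-2.44), held much more 3p than 5p, and CBD 6 did not (-0.26). For miR-877 the run means were 2.10, 1.58, 2.75 and 2.46, with an adjusted p of 0.0576 in the limma F test. That p was between 0.00960 and 0.0428 when CBD 3, CBD 4, vehicle 4 or vehicle 6 was left out.

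**Figure D3:**
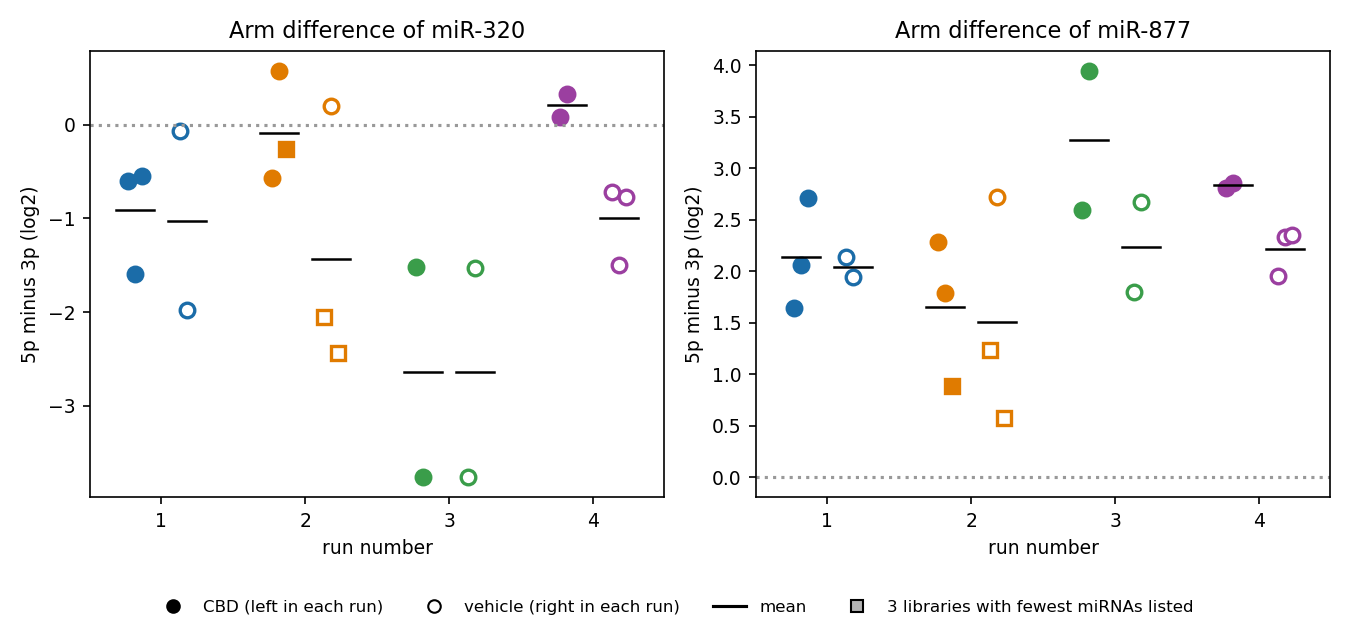
The 5p minus 3p difference (log2, vertical axis) of miR-320 and of miR-877 in each library by run (horizontal axis), with CBD filled on the left of each run, vehicle open on the right, and short lines at the means. Run 3 lies lowest for miR-320, with a mean of -2.64, in both treatments.

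The miRNAs most like each member were found by Pearson's r of log2 levels over the 20 libraries with treatment means removed. These values are descriptions, and the points share library, depth and scaling. For miR-320-5p the nearest were miR-6240 (r = 0.952), miR-6236 (0.915), miR-1961 (0.883), miR-5099 (0.794) and miR-2137 (0.772). With run means removed as well, they were 0.957, 0.906, 0.887, 0.765 and 0.769. Its own 3p arm came 30th, at 0.431.

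The sequences of 4 of these 5 are shown because most of them are long, short or rich in G and C beside a typical miRNA (RefSeq, GRCm38.p6, seed in capitals).
miR-6240: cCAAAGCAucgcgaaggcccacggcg
miR-6236: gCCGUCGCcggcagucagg
miR-1961: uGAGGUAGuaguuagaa
miR-2137: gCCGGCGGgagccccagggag
They are 26, 19, 17 and 21 bases long, with a GC content of 69.2%, 78.9%, 35.3% and 85.7%, where the median of the 247 miRNAs with a sequence was 47.8%. miR-6240, miR-6236, miR-5099 and miR-2137 are among 10 catalogue entries listed for resembling fragments of ribosomal or transfer RNA, of which 6 were measured. The seed of miR-1961 has the letters of the let-7 seed.

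The 3 largest positive differences of the table between CBD and vehicle were those of miR-320-5p, miR-6236 and miR-6240. miR-6236 averaged 11.50 ± 0.77 with CBD and 10.38 ± 1.01 with vehicle, a difference of 1.11 (SE 0.37), and miR-6240 averaged 11.11 ± 0.91 with CBD and 10.00 ± 1.04 with vehicle, a difference of 1.11 (SE 0.40). miR-1961 differed by 0.99 (SE 0.55), miR-5099 by 0.40 (SE 0.20) and miR-2137 by -0.02. Summed over the 6 measured entries resembling ribosomal or transfer RNA, CBD libraries held 2935 to 11120 CPM (median 7212) and vehicle libraries 1373 to 8886 CPM (median 3361). Vehicle 6 was lowest in this sum and in miR-320-5p. The part of these entries in the difference of miR-320-5p was not tested.

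The entries did not all follow miR-320-5p, since miR-3963 gave r = 0.475 and miR-1983 gave r = -0.348. The 3p arm of miR-320 was less like them, with r = 0.396 for miR-6240 and 0.560 for miR-6236. In CBD 7, CBD 8, vehicle 3 and vehicle 6, miR-6240 and miR-320-5p were below their group means and miR-320-3p was above its own.

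**Figure D4:**
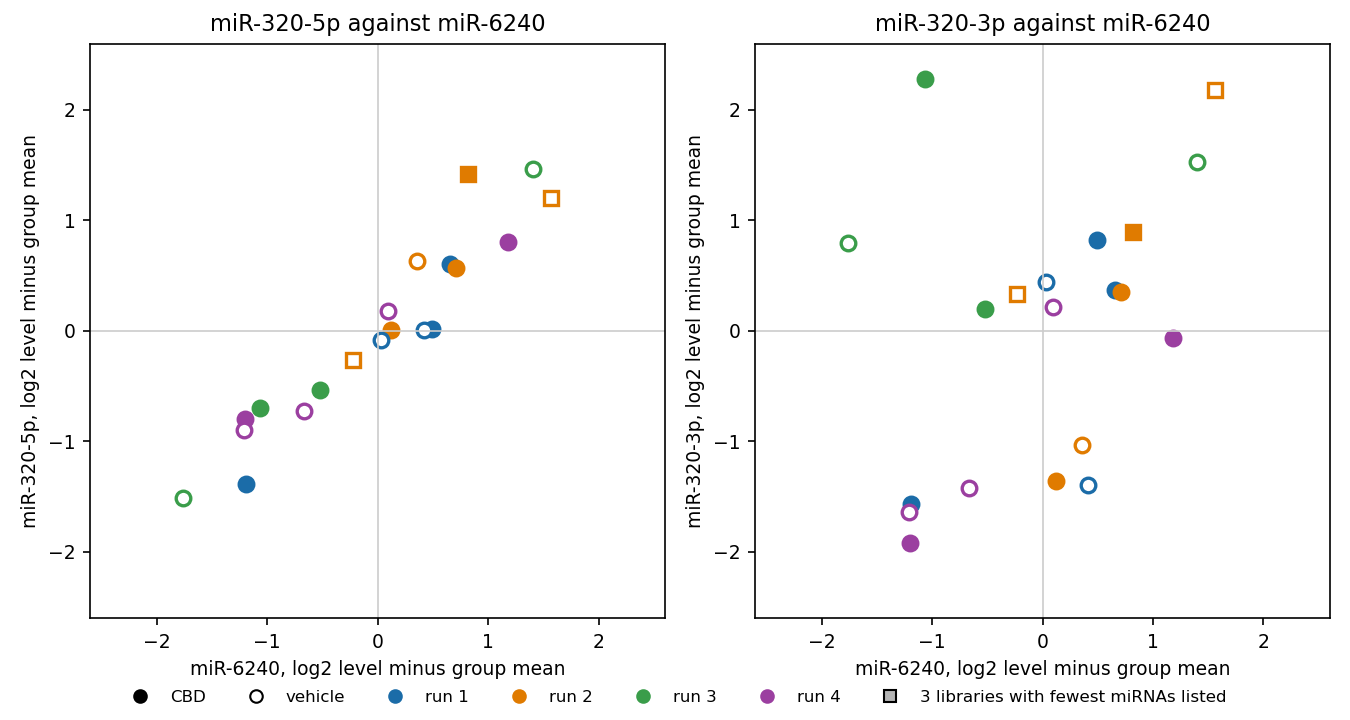
The 5p arm and the 3p arm of miR-320 (vertical axes) against miR-6240 (horizontal axes) in the 20 libraries, each as log2 level minus the mean of its treatment group, with CBD filled, vehicle open and colours for runs. The points for the 5p arm follow a line (r = 0.952) and those for the 3p arm scatter (r = 0.396).

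The other members had other neighbours. For miR-320-3p they were miR-27b-5p (r = 0.733), miR-423-5p (0.639), miR-140-3p (0.638), miR-219a-2-3p (0.633) and miR-540-3p (0.632). For miR-484 they were miR-344d-3p (0.724), miR-1843a-3p (0.649), miR-485-5p (0.622), miR-99b-5p (0.621) and miR-298-5p (0.611). For miR-485-5p the value was 0.193 once run means were removed.

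Mirtron neighbours moved with the 3 libraries that listed the fewest miRNAs. miR-877-5p was most like miR-181a-2-3p (r = 0.924), miR-540-3p (0.853), let-7d-3p (0.807), let-7b-3p (0.803) and miR-1249-3p (0.802). miR-877-3p was most like miR-1249-3p (0.953), miR-744-5p (0.951), miR-433-3p (0.946), miR-149-5p (0.946) and miR-328-3p (0.933). miR-1224-5p was most like miR-770-3p (0.934), miR-485-3p (0.907), miR-877-3p (0.896), miR-149-5p (0.892) and miR-328-3p (0.890). Without those 3 libraries, the neighbours of miR-877-3p lay between 0.759 and 0.854 and those of miR-1224-5p between 0.684 and 0.829. For miR-877-5p the values were then 0.902 for miR-181a-2-3p and 0.955 for miR-540-3p, but 0.448 to 0.521 for the other 3. The 5 neighbours of miR-320-5p gave 0.762 to 0.963 without them. The third neighbour of miR-1224-5p is thus itself a mirtron product from another chromosome.

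Among the members, miR-877-3p and miR-1224-5p were the closest pair, with r = 0.896, or 0.785 with run means removed. The next were the arms of miR-877 (0.766) and the pair of miR-877-5p with miR-1224-5p (0.682). Without the 3 libraries that listed the fewest miRNAs these 3 values were 0.722, 0.342 and 0.318. The pairs of miR-484 with miR-1224-5p (0.468), miR-320-3p with miR-877-5p (0.434) and miR-484 with miR-877-5p (0.362) then came before the last 2. With all 20 libraries the other pairs lay between 0.126 and 0.530. Those of miR-484 ran from 0.126 to 0.465.

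**Figure D5:**
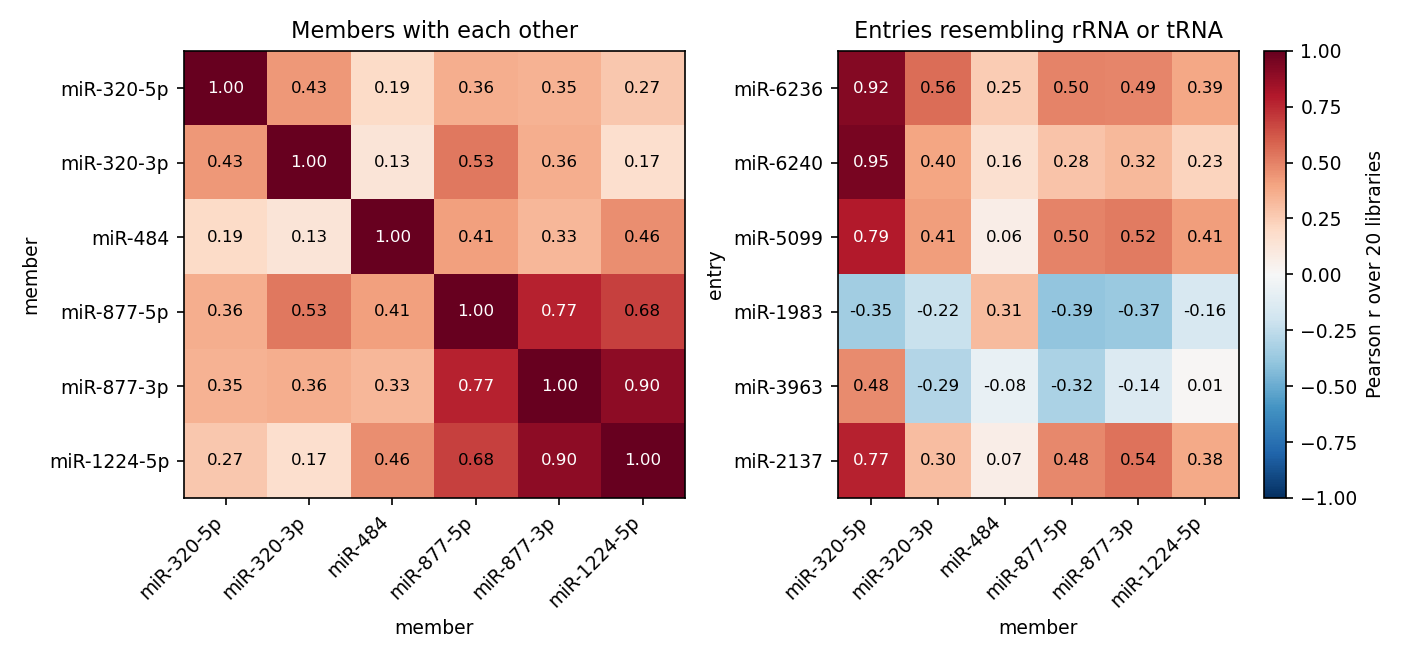
Pearson's r over the 20 libraries, with treatment means removed, between the 6 members (left) and between the members and the 6 measured entries resembling ribosomal or transfer RNA (right), on a colour scale from -1 to 1. The pairs of mirtron products on the left read 0.682 to 0.896 with all libraries and 0.318 to 0.722 without the 3 that listed the fewest miRNAs, and on the right miR-320-5p stands out with miR-6240 (0.952) and miR-6236 (0.915).

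The mirtron products and miR-484 are rich in G and C, at 66.7% for miR-1224-5p, 65.0% for miR-877-5p, 63.6% for miR-484 and 59.1% for miR-877-3p, ranks 19, 27, 31 and 51 of 247. The median r of miR-877-3p with the 56 other miRNAs above 57.1% GC was 0.598, and with the 44 below 40.9% it was -0.361. For miR-1224-5p these medians were 0.592 and -0.419, and for miR-877-5p 0.492 and -0.403. Without the 3 libraries that listed the fewest miRNAs, the medians with GC-rich miRNAs were 0.382, 0.340 and 0.177, and those with GC-poor miRNAs were -0.485, -0.443 and -0.400. For miR-484 the medians were 0.257 and -0.426 with all libraries, and 0.153 and -0.410 without those 3. Both miR-320 arms had the same signs with all libraries, at 0.22 and -0.22 for miR-320-5p and 0.29 and -0.25 for miR-320-3p. Without those 3 libraries they gave -0.05 and -0.23, and -0.02 and -0.21. The part of base composition in the likeness of the members was not tested.

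Other miRNAs made outside the canonical route gave a further set of values, from a list of which 10 were measured. Between CBD and vehicle, 5 were higher and 5 lower, with a median difference of -0.05, and 0 of 10 passed the adjusted threshold in limma's test, as for the whole table. miR-1839-5p had the widest gap, 0.45 (SE 0.22), with means of 9.18 with CBD and 8.73 with vehicle. Between runs 9 of 10 passed, beside 48% of all miRNAs, and miR-1839-3p did not (adjusted p = 0.771, limma's F test). miR-1981-5p, from an intron-filling hairpin like the mirtrons above, averaged 8.66 in run 2, against 7.30, 6.71 and 7.67 in runs 1, 3 and 4 (adjusted p = 0.000624, limma's F test). miR-1249-3p, the nearest neighbour of miR-877-3p, averaged 11.94 in run 2, against 10.26, 10.43 and 9.98 there (adjusted p = 0.00443, limma's F test). Its highest values by treatment were in CBD 6 (12.16) and vehicle 5 (13.34), both among the 3 libraries that listed the fewest miRNAs. miR-664-3p and miR-668-3p were also highest in run 2, but the rest of those that passed were not. miR-1983, miR-3102-3p, miR-344-3p and miR-344d-3p were highest in run 1, and miR-1839-5p in run 3. miR-344-3p (6.58) and miR-1839-5p (8.59) were lowest in run 2. The count of 9 and these run means are given with all 20 libraries only. Without those 3 libraries, the calls between runs over all miRNAs went from 135 to 60.

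The remaining intron-filling hairpin, Mir7080, was noticed after its values were seen. miR-7080-5p averaged 8.17 in run 2, against 7.26, 7.42 and 6.97 in runs 1, 3 and 4 (adjusted p = 0.161, limma's F test). miR-7080-3p averaged 7.85 in run 2, against 6.95, 6.41 and 6.72 there (adjusted p = 0.0377). These means too are given with all 20 libraries only. Run 2 also held the highest mean of 83 of all 281 miRNAs (29.5%), and whether intron-filling hairpins differ in this from other miRNAs was not tested.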

How the data were processed

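Small RNA was measured by sequencing (TruSeq small RNA kit on Trizol RNA, with size selection by Pippin Prep, per the labels' protocols). The deposited table gives log2 levels, made by the authors as log2((reads + 0.5)/(effective library size + 1) × 1000000). Each value came back as a whole number of reads within 1e-06 (100% of values). limma, edgeR and the build mm10 are named without version or role, per the submitters' processing notes. No source used here names the aligner, the counter or the catalogue of miRNAs. The authors' deposited comparison table also holds p-values, a score (t and log-odds) and a fold ratio written as a power of 10 of the log2 change. Of that table the log2 changes alone are printed here. A scaling ratio per library was computed from the effective size over the deposited total reads and ran from 0.693 to 1.17. It was lowest in CBD 8 (0.693), CBD 6 (0.714) and vehicle 5 (0.788). CBD 6 and vehicle 5 held the highest miR-877-3p and miR-1224-5p of their treatment, and CBD 8 and vehicle 5 the highest miR-320-3p. The part of the scaling in these levels was not tested.

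The 281 miRNAs were tested with limma 3.58.1 in R 4.3.3 (moderated tests with a variance trend, Benjamini-Hochberg adjustment over all of them, threshold 0.05): CBD against vehicle, between runs with treatment in the fit, and the interaction. The test was checked on simulated data. Arm levels and correlations were tested with 100000 permutations. Coordinates come from the GENCODE annotation of GRCm38 (mm10), and sequences from RefSeq GRCm38.p6, which matched 247 of 281 miRNAs and 4 of 6 members.

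The genes named were all members, the 5 miRNAs most like each, any sharing a seed, and a list of other noncanonical miRNAs. Members, lists and tests were chosen with earlier results of these data known. Alternatives were median centring, quantile normalisation, mean level filters of 10 and 100 CPM, voom weights on recovered reads, no variance trend, a run term, a pseudocount of 5 reads, and leaving out run 3. Added after seeing the data were leaving out single libraries or the 3 with the fewest miRNAs listed, the tests of arm differences between runs with their alternatives (no run 3, no treatment term), and arm correlations without run 3. The number of reads limits the precision of each level.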

Additional observations from a re-analysis of the deposited data

Results flagged for a closer look

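Of 16 groups of 10 libraries examined for a single library far from the rest, 2 held one, and chance gives about 1 in 20. miR-877-3p was 8.75 in CBD 6, where the next highest CBD library had 7.02. The 5p minus 3p difference of miR-320 was -3.77 in CBD 8, where the next lowest CBD library had -1.59. CBD 6 is one of the 3 libraries that listed the fewest miRNAs, and 2 vehicle libraries of that kind had similar levels of miR-877-3p (9.01 and 8.70). CBD 8 is of run 3, where vehicle 6 had an almost equal arm difference (-3.76).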

How the results depend on the processing

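Of 151 values recomputed under alternatives, 5 lost the threshold and 5 passed it. Many of the 151 had no room to change, so these counts do not measure robustness. The 10 CPM filter removed none of the 281 miRNAs, and neither filter nor the variance trend could change a treatment difference. Treatment differences were held to no threshold, and fits that left out a single library are not in the count. No called value changed sign, but 2 values near 0 did: the difference of miR-877-3p (0.02, against -0.03 with a run term) and the median of the other noncanonical miRNAs (-0.05, against 0.03 after median centring). The count of members differing between runs was 3, against 4 after centring or with voom weights, and that of the other noncanonical miRNAs was 9, against 8 after centring. The CBD minus vehicle difference of miR-320-5p lay between 1.13 and 1.32, that of miR-320-3p between 0.42 and 0.71, and that of miR-877-3p between -0.03 and 0.38. Without the 3 libraries with the fewest miRNAs listed, 0 members differed between runs, with F values of 1.57 for miR-877-5p, 3.32 for miR-877-3p and 1.77 for miR-1224-5p, and the arm correlation of miR-877 was 0.342. The F value of the arm difference of miR-320 was 0.894 without run 3. The arm correlation of miR-320 passed the threshold at 0.548 with run means removed, 0.734 without run 3 and 0.485 without the 2 farthest libraries. miR-320-3p passed between runs after median centring (F = 3.85) and with voom weights (F = 3.91). The causes were not tested. Centring moved the nominal CBD calls over all miRNAs from 7 higher and 15 lower to 13 and 4. miRNAs differing between runs numbered 135, against 60 without the 3 libraries. No paired analysis was possible because replicate numbers were given in accession order and pair no mice. At 19 reads in one library, miR-877-3p is the member most limited by depth.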
